A study of Mus musculus with 9 samples.

Results

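The imprinted Dlk1-Dio3 region of mouse chromosome 12 carries one of the largest groups of microRNA (miRNA) genes in the mouse genome. A list of 43 mature miRNAs from its maternally expressed strand was followed here through small RNA sequencing of mouse colon. All 43 were found by name among the 1155 rows of the count table. They fall into 12 miRNAs near the gene Rtl1 and 31 miRNAs from miR-379 to miR-410. A member was tested when its row passed the low-count filter and held at least 10 reads in at least 3 libraries. This left 35 members, 10 near Rtl1 and 25 from miR-379 to miR-410, among 433 tested rows.

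The study sequenced 9 colon libraries from wild-type C57BL/6J mice, 3 in each of 3 groups. The Control group received ordinary food and water. The DSS group received 2.5% dextran sulfate sodium (DSS) in its water, a sulfated polysaccharide that damages the colon lining and is used as a chemical model of colitis. The DSS_RJA group received the same DSS water and, each day, 0.2 mL of royal jelly acid (RJA) at 10 mg/kg by gavage. No gavage is recorded for Control or DSS, so RJA and the gavage itself cannot be told apart. The labels name no animal for a library, so p-values here reflect the spread among these libraries, which may be technical. They give neither the age of the mice nor the days of treatment.

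In this region the paternal chromosome expresses the protein-coding genes Dlk1, Rtl1 and Dio3. The maternal chromosome expresses noncoding RNAs, among them Meg3, Rian and Mirg, and the miRNAs are cut from its noncoding transcripts. A methylated control element sets which parent's copy is read. In mice the miRNAs antisense to Rtl1, among them miR-127, miR-136, miR-431, miR-433 and miR-434, pair fully with the Rtl1 messenger RNA and lower it. The miR-379 to miR-410 cluster is best known from brain, and mice that lack it adapt poorly to the metabolic demands of birth.

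On the GRCm38 build, the members' 34 hairpins all lie on the plus strand of chromosome 12. The Rtl1 sub-cluster has 8 hairpins at chr12:109585789-109618336, a span of 32.5 kb. Of these, 5 lie inside Rtl1, which is on the minus strand at chr12:109589193-109600330, and the hairpin of miR-370 lies inside Rian. The other 26 hairpins lie at chr12:109709060-109743795, a span of 34.7 kb that starts 90.7 kb further along, and the last 10 of them, miR-382 to miR-410, lie inside Mirg. Dlk1 is at chr12:109452823-109463336 and Dio3 at chr12:110279068-110281097.

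A RefSeq mature sequence (GRCm38.p6) was found for 40 of the 43 members. They are 20 to 25 bases long. Their 7-base seeds, bases 2 to 8, are 40 different words, so no pair of these members shares a seed. The 6 most abundant members and 4 others to which the comparison of DSS with Control returns are shown 5′ to 3′, with the seed in capitals. The full names carry the prefix mmu, for mouse, which is left out elsewhere. The first 2 lines, miR-379-5p and miR-411-5p, have seeds that end alike in GUAGAC.

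mmu-miR-379-5p: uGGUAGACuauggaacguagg

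mmu-miR-411-5p: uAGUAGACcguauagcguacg

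mmu-miR-127-3p: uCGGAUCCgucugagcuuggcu

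mmu-miR-434-5p: gCUCGACUcaugguuugaacca

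mmu-miR-381-3p: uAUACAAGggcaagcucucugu

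mmu-miR-541-5p: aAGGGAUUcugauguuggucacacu

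mmu-miR-433-3p: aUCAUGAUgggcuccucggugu

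mmu-miR-382-5p: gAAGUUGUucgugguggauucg

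mmu-miR-485-3p: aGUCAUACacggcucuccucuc

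mmu-miR-134-5p: uGUGACUGguugaccagagggg

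Of the mature sequences shown, miR-127-3p lies at chr12:109592888-109592909, miR-434-5p at chr12:109594528-109594549 and miR-433-3p at chr12:109591781-109591802, all opposite Rtl1. miR-379-5p at chr12:109709065-109709085 and miR-411-5p at chr12:109710190-109710210 open the second sub-cluster. Within Mirg lie miR-382-5p at chr12:109733781-109733802, miR-134-5p at chr12:109734145-109734166, miR-485-3p at chr12:109734946-109734967 and miR-541-5p at chr12:109742422-109742446.

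Some members have near copies or antisense partners, which bears on what a read count means. miR-300-3p and miR-381-3p differ at 3 bases, shown in capitals, and held 1426 and 5995 reads.

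miR-300-3p: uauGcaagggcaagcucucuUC

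miR-381-3p: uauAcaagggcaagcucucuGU

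miR-136-3p and miR-3071-5p, an entry outside the list, come from opposite strands of the same stretch of DNA. The 19 bases over which they are complementary are in capitals.

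miR-136-3p: AUCAUCGUCUCAAAUGAGUcuu

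miR-3071-5p: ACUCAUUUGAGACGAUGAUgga

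Their counts over the 9 libraries were 631 and 620 reads and never differed by more than 3 reads in a library, so in this table reads of the plus and minus strands there cannot be told apart. miR-337-3p and its antisense entry miR-3544-5p had identical counts, with 9 reads each. On the other arm of the miR-136 hairpin, miR-136-5p had 90 reads and its antisense entry miR-3071-3p, complementary over 20 bases, had 560. Values of miR-136-3p are therefore uncertain. Near copies outside the list also exist. miR-411-3p and miR-379-3p differ by 2 bases and held 272 and 88 reads. miR-299a-5p and miR-299b-5p differ by 1 base and held 248 and 3 reads. How reads that match both miR-300-3p and miR-381-3p, or both entries of these other pairs, were divided is not stated in the labels.

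Library totals were 5985153 to 8280980 reads, and every pair of libraries in a group differed by more than sampling noise. All 10 epithelial marker miRNAs and all 4 smooth muscle marker miRNAs, as colon should hold, had reads in every library. Some libraries lay closer to another group than to libraries of their own. The counts of DSS_RJA 3 differed from those of DSS 1 by a chi-square of 169 per degree of freedom, and from DSS_RJA 1 and DSS_RJA 2 by 1109 and 614. DSS_RJA 1 differed from Control 1, 2 and 3 by 111, 84.8 and 113, and from DSS_RJA 2 by 238. DSS 2 differed from DSS_RJA 2 by 250, and from DSS 1 and DSS 3 by 396 and 578. DSS_RJA 3 had the largest differences from its own group. The members' sums and the fold changes of DSS_RJA for the miRNAs named below are therefore also given without DSS_RJA 3.

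The whole list made up a small share of the colon miRNA pool. Levels are given in CPM, read counts scaled to 1000000 reads of a library after TMM correction of its size. The 43 members summed to 1237, 1205 and 1117 in the 3 Control libraries, to 1545, 1316 and 1410 in DSS, and to 1325, 1155 and 2202 in DSS_RJA. All 3 DSS libraries were above all 3 Control libraries, while DSS_RJA 2 lay within the Control range, DSS_RJA 1 within the DSS range, and DSS_RJA 3 was the highest of all 9. The group means (± SD, n = 3) were 1186 ± 62.3 CPM for Control, 1424 ± 115 for DSS and 1560 ± 562 for DSS_RJA. The ratio of means was 1.20 for DSS over Control. Without DSS_RJA 3 the DSS_RJA mean was 1240 CPM. As a share of all reads, the members ranged from 0.0969% in Control 3 to 0.232% in DSS_RJA 3.

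In both sub-clusters every DSS library was above every Control library. The Rtl1 sub-cluster summed to 466 ± 31.3 CPM in Control, 583 ± 34.4 with DSS and 582 ± 225 with DSS and RJA. The miR-379 to miR-410 sub-cluster summed to 720 ± 34.4, 841 ± 104 and 979 ± 338 CPM. Without DSS_RJA 3, the DSS_RJA means of the sub-clusters were 456 and 784 CPM, the first below the Control mean. As a percentage of the other sum, the Rtl1 sum was 64.8% ± 2.57 in Control, 69.9% ± 8.47 in the DSS group and 58.9% ± 4.98 in the DSS_RJA group. The DSS range held the whole Control range, and the 3 DSS_RJA libraries, at 62.5%, 53.3% and 61.0%, all lay below the lowest Control library, at 62.6%, the first of them by a margin much smaller than the spread within groups.

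**Figure D1:**
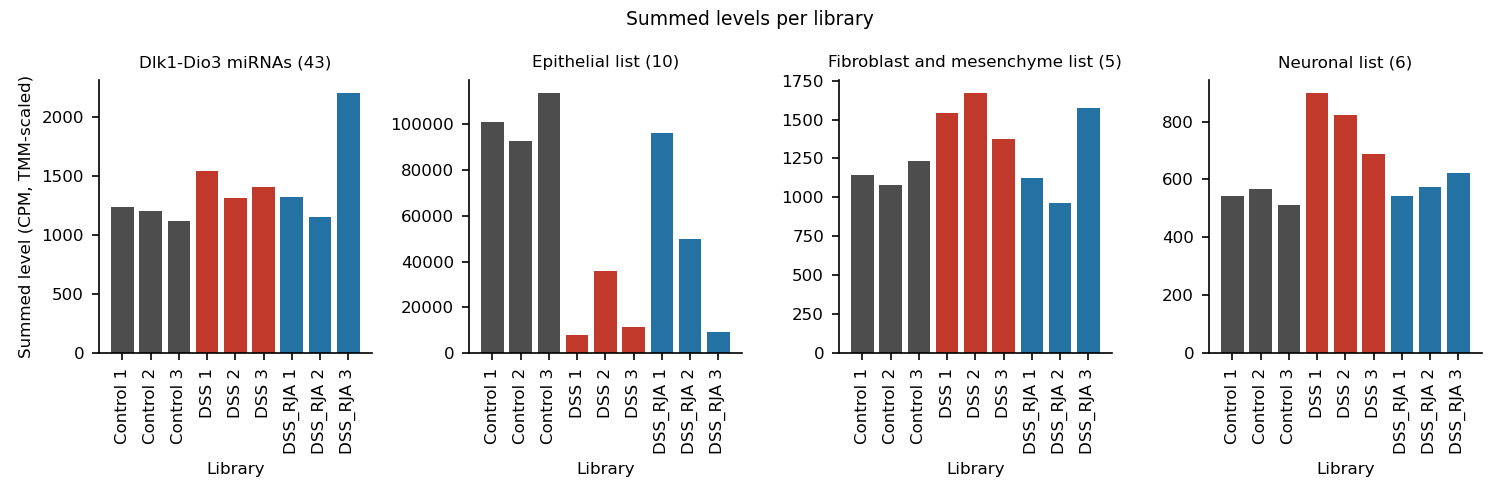
Summed CPM in each library, with a bar per library coloured by group, for the 43 members and for marker miRNAs of epithelium, of fibroblasts and mesenchyme, and of neurons. For the members the DSS bars lie above the Control bars, and DSS_RJA 3, at 2202 CPM, lies above all others.

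A few miRNAs made up most of the signal. miR-379-5p and miR-127-3p, at mean levels of 342 and 309 CPM over the 9 libraries, gave 46.8% of the summed CPM. The 5 most abundant members gave 76.3% and the 12 most abundant 90.9%. miR-411-5p (180 CPM), miR-434-5p (136 CPM), miR-381-3p (94.1 CPM) and miR-541-5p (57.1 CPM) came next, so that the leading 6 include 2 miRNAs antisense to Rtl1 and 4 from the other sub-cluster. The next 6 were miR-434-3p, miR-134-5p, miR-300-3p, miR-382-5p, miR-409-3p and miR-495-3p, from 38.7 down to 18.8 CPM. At the other end, 27 members had at least 10 reads in all 9 libraries and 8 were too low to test, among them miR-494-3p, miR-376a-3p and miR-377-3p. Those 8 held 2 to 66 reads each in all libraries together, 0.266% of the members' reads. Just inside the limit were miR-487b-3p and miR-668-3p, which reached 10 reads in 3 libraries, and just outside was miR-667-3p, which reached it in 2.

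**Figure D2:**
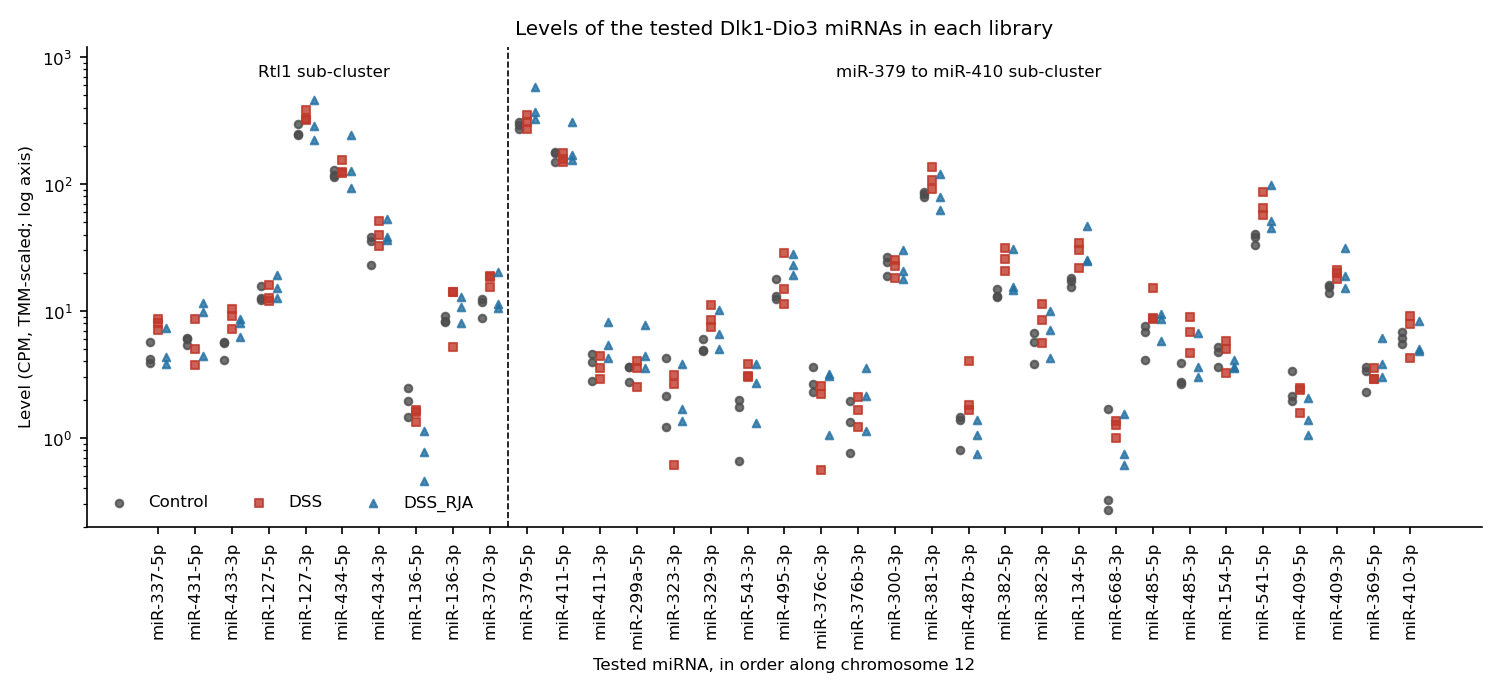
Level of each tested member in each library, in CPM on a log axis, ordered along chromosome 12 and coloured by group. miR-379-5p and miR-127-3p stand highest, at means of 342 and 309 CPM, and neighbouring hairpins differ widely in level.

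Where both arms of a hairpin were on the list, one arm usually dominated. Over all libraries miR-127-3p held 95.7% of the reads of its hairpin, miR-411-5p 97.6%, miR-337-5p 97.7%, miR-409-3p 90.2%, miR-136-3p 87.5% and miR-369-5p 84.9%. The arms were closer for miR-434 (77.7% in 5p), miR-382 (74.5% in 5p) and miR-485 (63.3% in 5p). An arm ratio does not depend on how the libraries are scaled. For miR-337, miR-127, miR-434, miR-411, miR-382 and miR-485 the libraries of the 3 groups overlapped in every comparison. The 5p share of miR-136 was 18.7% ± 4.64 in Control, 13.6% ± 5.80 with DSS and 6.83% ± 2.33 with DSS and RJA. Its 3 DSS_RJA libraries lay below all others, but miR-136-5p held no more than 16 reads in any library. This share and the 87.5% also rest on counts of miR-136-3p, whose reads cannot be told apart from those of miR-3071-5p. The 5p share of miR-409 was 14.0% ± 3.36 in Control and 9.89% ± 2.56 in DSS, and DSS_RJA overlapped both. Control and DSS did not overlap, but only by the margin between 11.76% in Control 1 and 11.72% in DSS 2. miR-409-5p held 7 to 25 reads in a library. The 5p share of miR-369 was higher in DSS_RJA (94.0% ± 1.33) than in any library of the other groups, where it averaged 78.8% ± 2.34 in Control and 83.9% ± 11.4 in DSS, with 39 reads of the 3p arm in all. These arm shares were not tested.

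**Figure D3:**
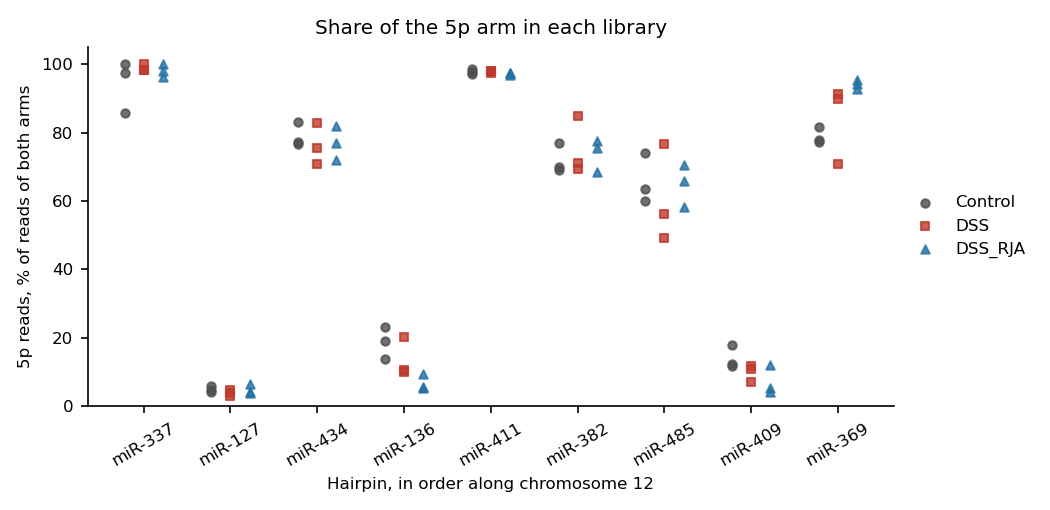
Reads of the 5p arm as a percentage of the reads of both arms, for the 9 hairpins with both arms on the list, with one point per library and colours for groups. The arm that dominates is the same in all libraries except for miR-485, and miR-136 (6.83% ± 2.33 in DSS_RJA) and miR-369 (94.0% ± 1.33 in DSS_RJA) are the hairpins whose DSS_RJA points lie apart from both other groups.

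DSS was compared with Control to see which miRNAs differ in the injured colon. No member passed the test of edgeR (quasi-likelihood, adjusted p under 0.05 over all 433 rows), against 2.31% of tested rows called higher and 1.62% called lower. Fold changes nevertheless lay mostly on one side: 26 of the 35 tested members had a positive log2 fold change and 9 a negative one, where 51% of all tested rows were positive. The median was 0.34 on the log2 scale for the members and 0.01 for all rows. The members ranged from -0.69 to 1.15.

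Before adjustment, 10 members had p under 0.05 in the higher direction, 28.6% of those tested against 15.2% of all rows, and 0 in the lower direction against 17.8% of all rows. For 14 members (40% of those tested), all 3 DSS libraries lay above all 3 Control libraries, against 18.9% of all rows, and for 0 members did they all lie below, against 22.6%. This holds for the listed members only. Of 15 other tested entries of the region, 2 lay below in all DSS libraries, both arms of miR-380. Since the members come from a few long transcripts, they are not independent of each other. The sub-clusters were alike in this comparison, with medians of 0.36 near Rtl1 (7 of 10 positive) and 0.34 from miR-379 to miR-410 (19 of 25 positive).

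Of the most abundant members, some hardly differed. miR-379-5p, at 307, 294 and 272 CPM in Control and 350, 271 and 310 CPM in DSS, had a log2 fold change of 0.09 ± 0.23 (SE). miR-411-5p, at 177, 180 and 149 CPM in Control and 174, 158 and 148 CPM in DSS, had -0.08 ± 0.25. These neighbouring hairpins with similar seeds gave overlapping groups in DSS and Control. miR-127-3p, one of the miRNAs that silence Rtl1, was at 295, 245 and 248 CPM in Control and at 320, 322 and 380 CPM in DSS, without overlap, and its log2 fold change of 0.38 ± 0.26 did not pass the test (edgeR adjusted p = 0.354). miR-434-5p, also antisense to Rtl1, overlapped between the groups (0.16 ± 0.30). miR-381-3p was at 84.1, 86.2 and 78.9 CPM in Control and at 136, 107 and 91.2 CPM in DSS, again without overlap (0.43 ± 0.25). Of the other members among the 12 most abundant, miR-409-3p (0.37 ± 0.26) had no overlap, while miR-434-3p (0.34 ± 0.27), miR-495-3p (0.34 ± 0.34) and miR-300-3p (-0.08 ± 0.25) overlapped.

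The members with the smallest p in the higher direction were of lower abundance. miR-433-3p, antisense to Rtl1, was at 5.68, 5.63 and 4.08 CPM in Control and 10.4, 7.24 and 9.14 CPM in DSS. Its log2 fold change was 0.80 ± 0.25 (edgeR adjusted p = 0.0749). miR-382-5p was at 12.9, 15.0 and 13.2 CPM in Control and 25.6, 20.8 and 31.3 CPM in DSS, a log2 fold change of 0.92 ± 0.30 (edgeR adjusted p = 0.0809). Every DSS library of these miRNAs was above every Control library. miR-485-3p was at 2.76, 2.68 and 3.92 CPM in Control and at 4.66, 6.83 and 8.92 CPM in DSS (1.13 ± 0.37, edgeR adjusted p = 0.0809).

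Of the 6 most abundant members, miR-541-5p had the largest log2 fold change. It was at 33.0, 38.3 and 40.7 CPM in Control and at 86.6, 56.8 and 64.3 CPM in DSS, a log2 fold change of 0.89 ± 0.30 (edgeR adjusted p = 0.0837). miR-134-5p, which in rat hippocampal neurons limits dendritic spine growth through Limk1, was at 18.1, 15.5 and 17.3 CPM in Control and 30.1, 21.9 and 34.1 CPM in DSS (0.76 ± 0.29, edgeR adjusted p = 0.109). miR-370-3p, whose hairpin lies in Rian, had 0.68 ± 0.27, and miR-337-5p, whose hairpin lies outside annotated Rtl1, had 0.79 ± 0.29. Among the rest, miR-329-3p, miR-543-3p and miR-485-5p also had unadjusted p under 0.05, with log2 fold changes of 0.78 ± 0.29, 1.15 ± 0.47 and 0.80 ± 0.33. The negative values with the smallest p were miR-376c-3p (-0.69 ± 0.56), miR-136-5p (-0.35 ± 0.39) and miR-409-5p (-0.24 ± 0.38), all with overlapping groups. For hairpins with both arms tested, the minor arms miR-127-5p (13.5 CPM in Control), miR-411-3p and miR-382-3p had 0.00 ± 0.23, -0.06 ± 0.33 and 0.63 ± 0.37. miR-136-3p, whose counts are uncertain as given above, had 0.39 ± 0.36.

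Whether these members passed depended on the libraries and scaling used. DSS_RJA 3 enters this comparison only through the shared estimate of spread, the scaling factors and the filter. Without it, 8 members were called higher in DSS against Control (edgeR adjusted p from 0.012 to 0.0495). They were miR-134-5p, miR-329-3p, miR-337-5p, miR-370-3p, miR-382-5p, miR-433-3p, miR-485-3p and miR-541-5p. In that fit 9.58% of all rows were called higher and 10.5% lower. For miR-541-5p the log2 fold change was then 0.93 ± 0.20, against 0.89 ± 0.30 with all libraries. With library totals in place of TMM factors 9 members were called higher, but there 14.8% of all rows were called higher and 2.08% lower, and the median of all rows was 0.39. Leaving miR-143-3p out of those totals also gave 9 (15.5% of all rows higher). With no low-count filter 3 members were called (2.6% of all rows higher), with only the 2 compared groups 6 (9.62%) and with DESeq2 2 (5.31%). miR-382-5p and miR-541-5p were called in the most alternatives, 6 of 18 each. Leaving out any single library other than DSS_RJA 3 gave no called member. Neither did RLE factors, a filter at 10 reads in 3 libraries, limma-voom or a replicate block. Relative to the median of all rows, the members' median was 0.32 higher with library totals, against 0.33 higher with TMM factors.

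**Figure D4:**
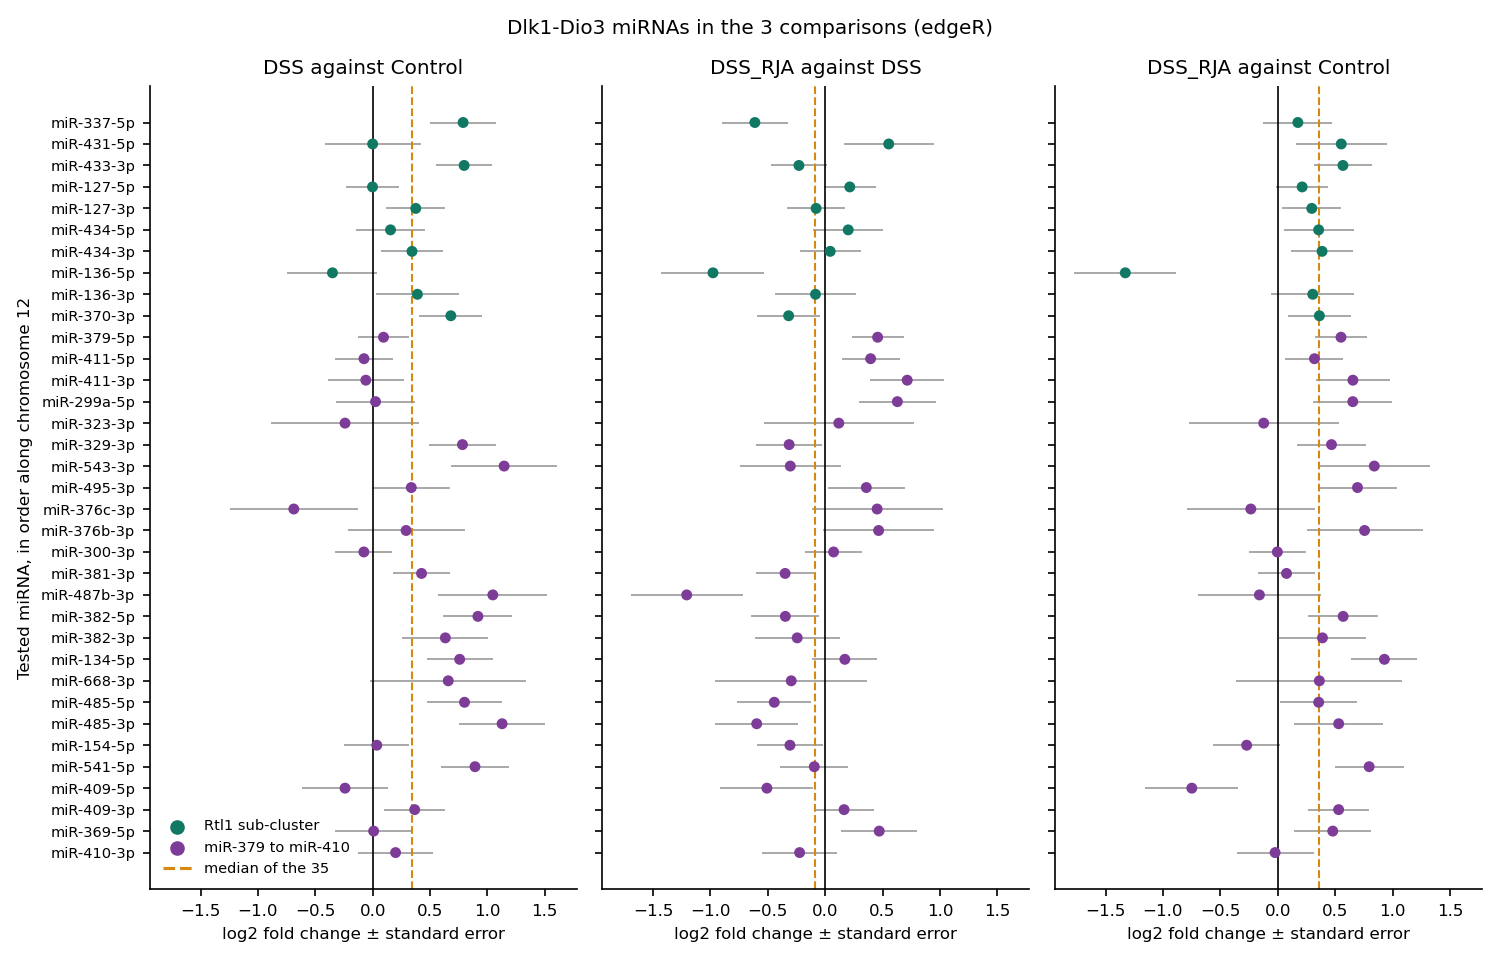
Log2 fold changes with standard errors of the tested members in order along chromosome 12, for each of the 3 comparisons. In DSS against Control 26 of 35 lie above 0, most of all from miR-382 onward, and in DSS_RJA against DSS they lie on both sides of 0 (16 positive, 19 negative).

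Along the miR-379 to miR-410 sub-cluster, the fold changes of DSS against Control were unevenly spread. The 12 tested members whose hairpins lie inside Mirg had a median of 0.65, with 11 positive, and for 6 all DSS libraries lay above all Control libraries. The 13 tested members before Mirg had a median of 0.09, with 8 positive and 4 without overlap. This split at the annotated start of Mirg was made after the values were seen, and the difference was not tested. In DSS_RJA against DSS, which shares the DSS libraries, the medians were -0.27 inside Mirg (3 of 12 positive) and 0.36 before it (9 of 13 positive). Without DSS_RJA 3 they were -0.53 (1 of 12 positive) and -0.01 (6 of 13 positive), so that the positive median before Mirg rested on that library. Members inside Mirg averaged 2.58, 2.62 and 2.50 log2 CPM in Control and 3.27, 3.06 and 2.95 in DSS, and members before it 3.05, 3.07 and 3.20 in Control and 3.42, 3.38 and 3.10 in DSS, so that only the first of these averages was higher in every DSS library than in every Control library. In DSS_RJA the averages were 2.66, 2.62 and 3.35 inside Mirg and 3.14, 3.13 and 3.96 before it, and DSS_RJA 3 was the highest of all 9 libraries in both.

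DSS_RJA was compared with DSS to see which miRNAs differ when RJA is given with DSS. No member passed the test, against 0.231% of all rows called higher and 0% lower. The members had 16 positive and 19 negative log2 fold changes (51.7% of all rows were positive), with a median of -0.08 against 0.02 for all rows. No member had unadjusted p under 0.05 in the higher direction (8.55% of all rows), and 1 did in the lower direction (5.54% of all rows). None had all DSS_RJA libraries above all DSS libraries (6% of all rows) and 2 had them all below (7.16% of all rows). In the lower direction these counts were near the shares in the whole table. Since the members are not independent of each other, the lack of members in the higher direction was not read further.

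The member with the smallest p was miR-487b-3p, at 4.04, 1.81 and 1.67 CPM in DSS and 0.75, 1.06 and 1.38 CPM in DSS_RJA. Its log2 fold change of -1.21 ± 0.49 (edgeR adjusted p = 0.279) rests on 4 to 33 reads a library, and DSS 1 held the 33. miR-136-5p was at 1.59, 1.67 and 1.34 CPM in DSS and 1.13, 0.455 and 0.769 CPM in DSS_RJA (-0.98 ± 0.45), also from few reads, and also without overlap. miR-337-5p had -0.61 ± 0.29. In the other direction, miR-379-5p, at 369, 327 and 581 CPM in DSS_RJA, had a log2 fold change of 0.46 ± 0.23 (edgeR adjusted p = 0.367), and its neighbours miR-411-3p and miR-299a-5p had 0.71 ± 0.32 and 0.63 ± 0.34. For these 3 the groups overlapped, and DSS_RJA 3 was the highest of the 9 libraries. Without it miR-379-5p, miR-411-3p and miR-299a-5p had 0.14 ± 0.17, 0.39 ± 0.32 and 0.22 ± 0.34. For miR-487b-3p, miR-136-5p and miR-337-5p the values without it were -1.44 ± 0.59, -1.002 ± 0.55 and -0.99 ± 0.28.

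Many directions in this comparison turned on DSS_RJA 3. Without it, 9 members were positive and 26 negative (47.7% of all rows were positive), the median was -0.31 against -0.02 for all rows, and 9 members had unadjusted p under 0.05 in the lower direction (11.6% of all rows). None of them passed the adjusted threshold in edgeR, where 6.46% of all rows were called higher and 1.78% lower. The median of the miR-379 to miR-410 sub-cluster was then -0.48, against -0.10 with all libraries. Leaving out any single one of the other 8 libraries gave medians over the tested members of -0.15 to 0.071.

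DSS_RJA against Control gave 0 called members and 0 called rows (0% higher and 0% lower). Of the members, 27 were positive and 8 negative (52.2% of all rows were positive), with a median of 0.36 against 0.03 for all rows. Before adjustment 4 members were higher (8.55% of all rows) and 1 lower (5.77%). All DSS_RJA libraries lay above all Control libraries for 5 members (10.2% of all rows) and below for 1 (11.5%). Since DSS_RJA and DSS were each compared with the same Control libraries, the values in these comparisons are not independent.

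miR-134-5p had the smallest p, at 24.8, 25.2 and 47.0 CPM in DSS_RJA, all above the Control values of 15.5 to 18.1 CPM. Its log2 fold change was 0.93 ± 0.29 (edgeR adjusted p = 0.256). miR-541-5p, at 45.4, 51.4 and 97.6 CPM in DSS_RJA, had 0.80 ± 0.30, and miR-379-5p and miR-433-3p had 0.55 ± 0.23 and 0.57 ± 0.25. These 4 miRNAs and miR-495-3p (0.69 ± 0.34) were the 5 whose DSS_RJA libraries all lay above Control. miR-136-5p lay below in all 3, with a log2 fold change of -1.33 ± 0.45 (edgeR adjusted p = 0.256), and the next lower values were those of miR-409-5p (-0.75 ± 0.40) and miR-154-5p (-0.27 ± 0.29), with overlap. Without DSS_RJA 3, miR-134-5p, miR-541-5p and miR-379-5p had 0.58 ± 0.23, 0.40 ± 0.22 and 0.28 ± 0.17, while miR-433-3p (0.56 ± 0.30), miR-495-3p (0.57 ± 0.36), miR-136-5p (-1.31 ± 0.55), miR-409-5p (-0.69 ± 0.48) and miR-154-5p (-0.21 ± 0.33) moved less. The median over the members was then 0.13, with 21 positive and 14 negative (54.8% of all rows were positive).

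Much of the list varied together between libraries. Each tested member was set against its own median over the 9 libraries. In Control 1, 2 and 3, 7, 9 and 8 of the 35 tested members lay above their median. In DSS the numbers were 30, 22 and 15, and in DSS_RJA they were 8, 10 and 31. Over all 433 tested rows the share above the median stayed between 39.7% and 47.8% in every library. DSS_RJA 3 and DSS 1 were thus the libraries in which nearly the whole list was high, and both sub-clusters took part, with 9 of 10 members near Rtl1 above their median in each of these libraries and 22 and 21 of 25 from miR-379 to miR-410. The deviation of a member's log2 CPM from its own mean over the 9 libraries, averaged over the members, was 0.54 in DSS_RJA 3 and 0.28 in DSS 1, and by this measure DSS_RJA 2 was lowest, at -0.24. By the number of members above their median, Control 1 was lowest.

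**Figure D5:**
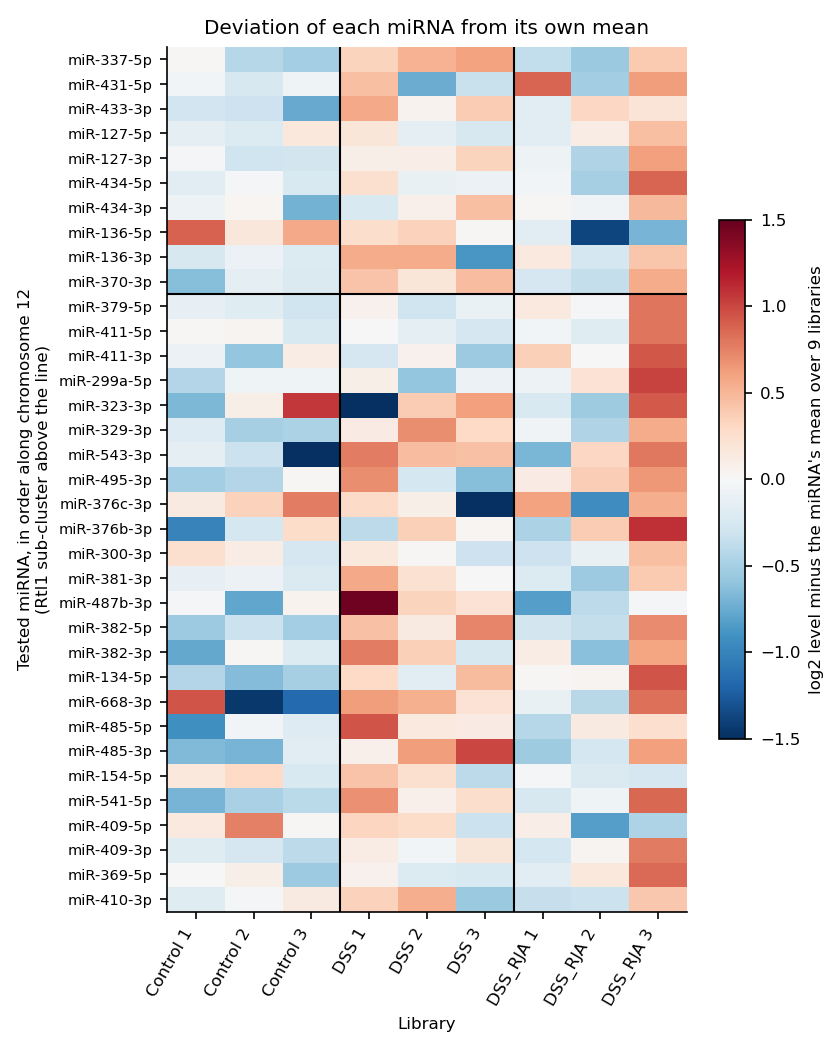
Deviation of each tested member, in order along chromosome 12, from its own mean over the 9 libraries in log2 CPM, one column per library. DSS_RJA 3 is high over nearly the whole list (31 of 35 above their median) and the Control libraries are mostly low (7 to 9 of 35).

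Pearson's r was taken between pairs of members over the 9 libraries, after each library's group mean was removed, as a description of how far members vary together within groups. Its median was 0.39 over 595 pairs of members, and 83.2% of pairs were positive, against a median of 0.00 over all pairs of tested rows. Pairs within the Rtl1 sub-cluster had a median r of 0.34, pairs within the miR-379 to miR-410 sub-cluster 0.42, and pairs across the 90.7 kb gap 0.39. The r was higher where levels were higher, with a median of 0.64 for the 15 members of at least 10 CPM and 0.86 for the 6 of at least 50 CPM, against 0.07 for all rows of at least 50 CPM. All pairs share the same 9 libraries, and most of this rested on DSS_RJA 3. Without it the median was 0.09 over all members (56.5% of pairs positive), 0.17 for members of at least 10 CPM and 0.42 for those of at least 50 CPM. Without any other single library the median over all members was 0.36 to 0.46.

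The libraries with high levels of the members also differed in markers of colon cell types. Summed CPM of the 10 epithelial markers was 100721, 92497 and 113526 in Control, 7954, 35781 and 11619 in DSS, and 96260, 50043 and 9456 in the DSS_RJA group. The 3 libraries with the highest sums of the members, DSS_RJA 3, DSS 1 and DSS 3, had the 3 lowest epithelial sums. The order did not hold further down: DSS_RJA 1 had a member sum of 1325 CPM with an epithelial sum of 96260, and DSS 2 had 1316 with 35781. In bulk tissue, fewer cells of a type and less RNA per cell cannot be told apart. The 5 fibroblast and mesenchyme markers summed to 1145, 1082 and 1233 CPM in Control, 1540, 1670 and 1375 in DSS, and 1124, 964 and 1575 in the DSS_RJA group. The 6 neuronal markers summed to 541, 566 and 513 CPM in Control, 898, 821 and 687 in DSS, and 543, 573 and 623 in the DSS_RJA group. The 5 leukocyte markers summed to 508, 630 and 606 CPM in Control, 1761, 1129 and 2050 in DSS, and 233, 1141 and 1365 in DSS_RJA.

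The sums of the fibroblast, neuronal and leukocyte lists were thus above Control in all 3 DSS libraries, as the sum of the members was. Single markers did not all follow their list. Of the 5 fibroblast and mesenchyme markers 2 lay above Control in every DSS library, 1 (miR-199b-5p) below and 2 overlapped. Of the 6 neuronal markers 2 lay above, 1 (miR-128-3p) below and 3 overlapped, and of the 5 leukocyte markers 3 lay above and 2 overlapped. All 10 epithelial markers lay below. All markers of these lists had reads in every library. The 4 smooth muscle markers summed to 795965 ± 29300 CPM in Control, 630638 ± 18164 with DSS and 715308 ± 58223 with DSS and RJA. Nearly all of this was miR-143-3p, at 817102 of 829572 CPM in Control 1. As a share of reads the list held 72.0%, 70.5% and 67.3% in Control and 69.6%, 68.5% and 77.1% in DSS, with overlap. The lower CPM with DSS thus appeared only after TMM scaling. In CPM, 2 of the 4 markers (miR-143-3p and miR-1a-3p) lay below Control in every DSS library and 2 overlapped. The 2 endothelial markers were at 3388 ± 127, 4096 ± 960 and 4406 ± 785 CPM, and the 3 erythrocyte markers, of which miR-144-3p was at 0 in 7 libraries, at 233 ± 32.6, 184 ± 33.7 and 164 ± 16.1 CPM. The part of these cell types in the levels of the members was not tested. Relative to the fibroblast and mesenchyme list, a ratio chosen after the values were seen, the members summed to 103% ± 11.2 in Control, 93.9% ± 13.1 in DSS and 126% ± 12.1 in DSS_RJA. On this scale DSS overlapped Control, and all 3 DSS_RJA libraries, at 118%, 120% and 140%, lay above all 6 others. Relative to the neuronal list the members summed to 220% ± 8.13 in Control, 179% ± 23.3 with DSS and 266% ± 78.5 with DSS and RJA. Relative to the smooth muscle list, in effect miR-143-3p, they summed to 0.149% ± 0.00500 in Control, 0.226% ± 0.0185 with DSS and 0.220% ± 0.0861 with DSS and RJA. Relative to the epithelial list they summed to 1.17% ± 0.167, 11.7% ± 7.88 and 8.99% ± 12.4. On both of these scales every DSS and every DSS_RJA library lay above every Control library. On the neuronal scale every DSS library lay below Control. A ratio also moves with the list it is divided by. The epithelial mean was 102248 CPM for Control and 18451.5 for DSS. DSS_RJA 2 had a member sum of 1155 CPM, within the Control range of 1117 to 1237. Its smooth muscle and epithelial sums, 674649 and 50043 CPM, were below every Control library. As a share of reads its smooth muscle list (72.2%) was not below Control, and its members (0.124%) were above. What moved these ratios was not tested.

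From a fixed list of other hairpins of the region and the other arms of the members' hairpins, the table holds 50 further entries. Of these 15 were tested, and none was called. Entries of miR-3544 and miR-299b, antisense to members, were not among the 50. In DSS against Control 10 of the 15 were positive, with a median of 0.19. All DSS libraries lay above all Control libraries for 3 of them (20%, against 18.9% of all rows). They all lay below for 2, both arms of miR-380 (22.6% of all rows). Before adjustment 2 entries were higher (15.2% of all rows) and 2 lower (17.8%). The lowest and highest of them split by hairpin: miR-380-3p and miR-380-5p had -1.20 ± 0.47 and -1.03 ± 0.44, while miR-329-5p and miR-540-3p had 1.07 ± 0.42 and 0.98 ± 0.39. In DSS_RJA against DSS the smallest p was that of miR-299a-3p, with a log2 fold change of 1.51 ± 0.38 (edgeR adjusted p = 0.122), followed by miR-380-5p with 1.48 ± 0.43. In DSS_RJA against Control 13 of 15 were positive, with a median of 0.56. Without DSS_RJA 3 miR-299a-3p and miR-380-5p had 1.02 ± 0.34 and 0.99 ± 0.46 in DSS_RJA against DSS, and the median against Control was 0.25. With all libraries both arms of miR-299a were positive in DSS_RJA against DSS, the 5p arm at 0.63 ± 0.34.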

How the data were processed

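Small RNA was measured in 9 colon libraries, from inserts of 18 to 40 bp read over 50 bases after adaptor ligation and PCR, per the labels' protocols. Bowtie and DESeq are named in the submitters' processing notes, with no version or role. The genome build, the handling of reads that match several miRNAs and the use of strand in counting are not stated in the labels. The authors deposited raw counts for each mature miRNA, per the file headers. The deposited TPM values equalled each count scaled to 1000000 reads (largest difference 4.66e-10), with no term for length, and were not used further.

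Tests were run on the deposited counts with edgeR 4.0.16 under R 4.3.3. The filter filterByExpr, at a minimum count of 10, left 433 of 1155 rows. Libraries were scaled by TMM, and 1 quasi-likelihood fit took in all 9 libraries with no covariate. p-values were adjusted by Benjamini-Hochberg over the 433 rows, with a threshold of 0.05. A standard error is the log2 fold change over the root of its F statistic, without sign, and is approximate. PCR copies are not independent molecules, so read numbers overstate the precision. The script was tested on simulated counts with known changes.

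Members, lists and tests were chosen with earlier results of these data known. Named are the 12 most abundant members, in each comparison the 3 with the smallest p in each direction, both arms of hairpins with 2 tested arms, members at the limit of 10 reads, and the other entries of the region. Other members with unadjusted p under 0.05, or without overlap, were named after their values were seen. Sequences and positions are from RefSeq and the annotation of GRCm38. Alternatives were library totals, RLE factors, library totals without miR-143-3p, no filter, 10 reads in 3 libraries, the 2 compared groups alone, DESeq2 1.42.0, limma-voom (limma 3.58.1), a replicate block, and leaving out each library.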

Additional observations from a re-analysis of the deposited data

How the results depend on the processing

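The test called 0 members in DSS against Control, and also 0 with RLE factors, with the filter at 10 reads in 3 libraries, with limma-voom and with the replicate block. It called 9 with library totals, 9 with library totals without miR-143-3p, 3 with no filter, 6 with only the 2 compared groups and 2 with DESeq2. Without single libraries it called 0 to 8. In both other comparisons 0 members were called under every alternative. The cause of these differences was not tested.

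Library totals alone and library totals without miR-143-3p moved the DSS against Control medians to 0.72 and 0.77 for all tested members, 0.73 and 0.80 near Rtl1, and 0.70 and 0.76 from miR-379 to miR-410. The latter scaling gave 0.66, 0.62 and 0.75 in DSS_RJA against Control. Members higher without overlap then numbered 24 for DSS against Control (42% of all rows) and 1 for DSS_RJA against DSS (4.62%). For DSS_RJA against Control there were 9 (9 also with library totals, and 19.2% of all rows in both). Without single libraries they were 0 to 4 in DSS_RJA against DSS (10.2% to 19.9% of all rows) and 5 to 11 in DSS_RJA against Control (14.1% to 20.8%). The median from miR-379 to miR-410 was then -0.48 to 0.077 in DSS_RJA against DSS and 0.16 to 0.63 in DSS_RJA against Control, and the Rtl1 median 0.045 to 0.47 in the latter. The summed level was 1042 CPM in Control and 1618 in DSS with library totals, and 3369, 5573 and 5425 in Control, DSS and DSS_RJA without miR-143-3p in the totals.

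Of uncalled values, these turned in sign with library totals and then without miR-143-3p: in DSS against Control miR-136-5p (0.018, 0.090), miR-300-3p (0.29, 0.35), miR-409-5p (0.12, 0.18) and miR-411-5p (0.29, 0.37); in DSS_RJA against DSS miR-300-3p (-0.085, -0.065) and miR-434-3p (-0.13, -0.17), and without miR-143-3p also miR-134-5p (-0.024) and miR-409-3p (-0.0031); in DSS_RJA against Control miR-300-3p (0.20, 0.29), which was 0.010 with no filter and 0.0030 with the replicate block. Without single libraries, DSS against Control ran from -0.17 to 0.066 for miR-300-3p, -0.35 to 0.089 for miR-409-5p, -0.13 to 0.023 for miR-411-5p and -0.14 to 0.60 for miR-495-3p. DSS_RJA against DSS ran from -0.46 to 0.13 for miR-127-3p, -0.23 to 0.32 for miR-134-5p, -0.19 to 0.20 for miR-300-3p, -0.21 to 0.34 for miR-409-3p, -0.17 to 0.24 for miR-434-3p, -0.31 to 0.46 for miR-434-5p and -0.53 to 0.095 for miR-541-5p. DSS_RJA against Control ran from -0.040 to 0.50 for miR-127-3p, -0.23 to 0.16 for miR-300-3p, -0.21 to 0.26 for miR-381-3p, -0.037 to 0.50 for miR-411-5p and -0.11 to 0.61 for miR-434-5p.

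The replicate numbers showed no clear pairing of the libraries: over 9 same-numbered pairs the correlation of deviations was -0.42 to 0.14, and 2 of the 9 libraries correlated best with their own number. Whether the numbers mark a shared handling was not tested. With the replicate block, 0 members and 4 of all rows were called in DSS against Control, against 17 of all rows without it.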
